A study of Mus musculus with 12 samples.

Results

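The transcripts described here are those of 8 plasma protein genes, measured in mouse kidney. They encode the 3 chains of fibrinogen (Fga, Fgb and Fgg), the complement proteins C3, C4b and Cfi, and the plasma proteins Apoh and Pzp. They are plasma proteins better known from liver. The 8 genes were chosen by their measured levels in these same libraries, so their differences between groups are given as descriptions, without p-values. The deposited tables held 24532 gene identifiers, of which 14488 passed a filter of at least 1 TPM, a share of each library that is scaled for gene length, in at least 3 libraries. Each of the 8 genes passed it.

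Plasma proteins such as fibrinogen and complement are made mainly by hepatocytes and secreted into blood. Fibrinogen is a dimer in which each unit holds an alpha, a beta and a gamma chain, and thrombin cuts the alpha and beta chains to form fibrin. Complement C3 is the protein on which the activation routes of the cascade meet, C4 belongs to the classical and lectin routes, and factor I is the protease that inactivates C3b and C4b. Tubule cells share with hepatocytes several transcription factors and FXR, the farnesoid X receptor. FXR is a nuclear receptor that binds bile acids and acts with the retinoid X receptor. In liver, human fibrinogen genes and C3 have been described as targets of FXR.

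Kidney RNA was sequenced in 12 libraries that form 4 groups of 3. The wild-type groups carried the strain label C57BL/6 and the knockout groups Nr1h4tm1Gonz/J, a targeted disruption of Nr1h4, the gene of FXR. One group of each genotype had received vehicle and one GW4064, a synthetic FXR agonist, for 6 h, and per the design text the mice had been fasted overnight. The allele is a germline one, so the receptor is disrupted in liver and gut as well as in kidney. The labels give no age, sex, dose or time for vehicle, and do not say whether libraries of a group came from separate mice, so the errors measure the spread between these libraries, which may be technical. The effect of the allele and that of the knockout strain's genetic background cannot be told apart.

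Depth was 2.86 to 4.27 mapped gigabases per library. Nr1h4 measured 189.1 to 266.7 TPM in the 6 wild-type libraries and 104.8 to 134.1 TPM in the 6 knockout libraries, a value for the whole gene that does not separate intact from truncated transcripts. Slc51a, a basolateral bile acid transporter gene used as a check of the agonist label, measured 426.9 to 514.0 TPM in wild type under GW4064 and 28.6 to 48.1 TPM in the other 9 libraries. All 8 proximal tubule markers exceeded 1 TPM in every library. Of 12 hepatocyte markers, Ahsg, Cps1, Tat, Cyp2f2 and Mup20 stayed under 1 TPM in every library, with highest values of 0.555, 0.206, 0.193, 0.505 and 0.187 TPM. Serpina3k reached 1.62 TPM in wild-type vehicle library 3 and at most 0.399 TPM elsewhere. Alb, at 8.34 TPM, and Ahsg, Cps1, Tat and Cyp2f2 were also highest in that library, while the other 6 markers were highest in other libraries. Apoa2, Apoc3, Ttr, Serpina1c and Alb exceeded 1 TPM in every library, with lowest values of 5.66, 8.99, 63.5, 11.1 and 2.41 TPM, and Apoa1 ran from 0.868 to 2.43 TPM. The 12 markers summed to 170.6 to 196.8 TPM in wild type on vehicle and 142.4 to 164.6 TPM under GW4064, and to 150.4 to 199.4 and 112.3 to 161.8 TPM in the knockout. Without wild-type vehicle library 3 the log2 difference after GW4064 in wild type was 2.32 for Fgb, 1.73 for C3 and 1.11 for Fga, and the Fga value was then no longer called.

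After GW4064 in wild type, 3 of the 8 genes were called higher: Fgb, C3 and Fga. A gene is called at a Benjamini-Hochberg adjusted p under 0.05 in a limma fit over all genes, and 2.48% of all genes tested were called higher and 2.32% lower in this comparison. None of the 8 was called lower. In the knockout, GW4064 was followed by 0 calls among the 8 genes in the limma fit, also at an unadjusted p under 0.05, while 0.0069% of all genes were called in each direction. On vehicle, Apoh, C4b and Pzp were called higher in the knockout than in wild type and Fgb lower, where 3.19% of all genes were called higher and 9.73% lower. Under GW4064, Apoh and C4b were called higher in the knockout and C3 and Fgb lower, beside 7.08% and 11.4% of all genes. The interaction, which is the GW4064 effect in the knockout minus that in wild type, was called negative for Fgb and C3, and 1.47% of all genes were called positive and 1.72% negative. Comparisons that share a group of libraries are not independent of each other, and since the genes were chosen with these contrasts known, nothing is read from the counts.

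**Figure D1:**
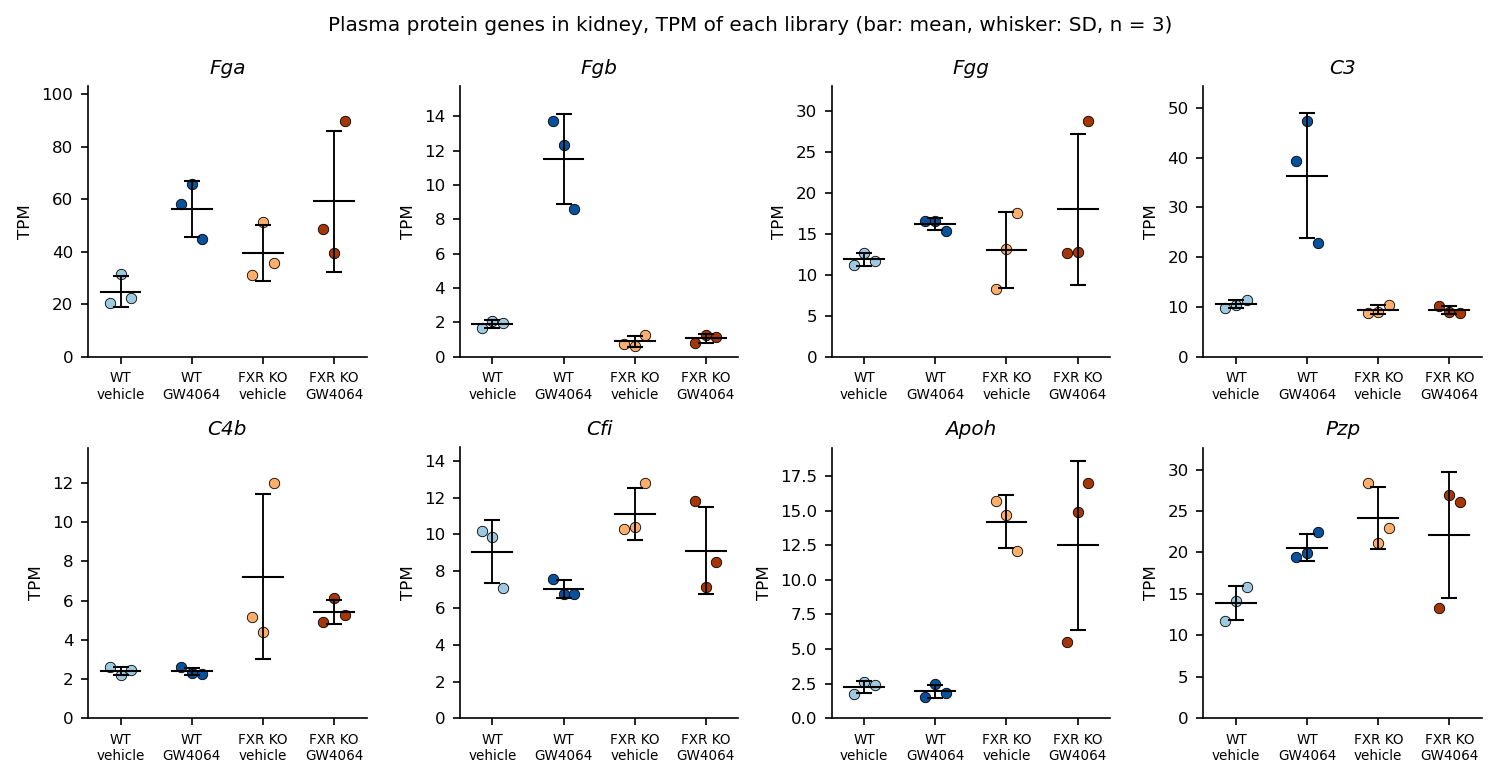
TPM of the 8 genes in each library, by group (points: libraries, bar: mean, whisker: SD, n = 3; each panel has its own vertical axis from 0). Fgb and C3 are high only in the wild-type GW4064 group, with lowest values of 8.61 and 22.8 TPM, and Apoh is high in both knockout groups, with a lowest value of 5.54 TPM.

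On the TPM scale, which allows levels of different genes to be set side by side, Fga was the most abundant of the 8 in wild type on vehicle, at 24.8 ± 5.86 TPM (SD, n = 3). Pzp at 13.9 ± 2.09, Fgg at 11.9 ± 0.788, C3 at 10.6 ± 0.781 and Cfi at 9.06 ± 1.70 TPM followed, and each of them overlapped its neighbour in this order. C4b at 2.42 ± 0.206, Apoh at 2.25 ± 0.429 and Fgb at 1.91 ± 0.237 TPM formed the low end and also overlapped. Under GW4064 in wild type the order was Fga, C3, Pzp, Fgg, Fgb, Cfi, C4b and Apoh, with C3 at 36.4 ± 12.5 and Fgb at 11.5 ± 2.63 TPM. In the knockout on vehicle Apoh, at 14.2 ± 1.89 TPM, came next after Fga and Pzp, overlapping Fgg, and Fgb came last, at 0.893 ± 0.343 TPM. The kidney tissue was not separated into cell types, so a lower value may reflect fewer cells of a type or less RNA per cell, which cannot be told apart.

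The fibrinogen genes lie side by side on chromosome 3 within 42.1 kb (mm10), in the order Fgg (83007724 to 83015056, plus strand), Fga (83026153 to 83033617, plus strand) and Fgb (83042246 to 83049863, minus strand). Their Entrez Gene identifiers are 99571, 14161 and 110135. C3 (Entrez Gene 12266) lies on chromosome 17, 57203967 to 57228136, minus strand. The 250 bases before the start of each of these 4 genes are shown because their transcripts include the 3 called higher after GW4064 in wild type, Fga, Fgb and C3, and the remaining fibrinogen gene, Fgg. They are taken from the RefSeq promoter table of GRCm38.p6, which held an entry for 6 of the 8 genes, and run 5′ to 3′ along the gene's strand. Capitals mark the motif matches, and positions count back from -1, the base before the start.
Fga, chr3:83025903-83026152, plus strand: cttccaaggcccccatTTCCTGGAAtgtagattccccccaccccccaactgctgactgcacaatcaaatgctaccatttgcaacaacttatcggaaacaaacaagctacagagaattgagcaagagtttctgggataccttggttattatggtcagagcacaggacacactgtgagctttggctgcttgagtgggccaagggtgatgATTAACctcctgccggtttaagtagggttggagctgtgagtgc
Fgb, chr3:83049864-83050113, minus strand: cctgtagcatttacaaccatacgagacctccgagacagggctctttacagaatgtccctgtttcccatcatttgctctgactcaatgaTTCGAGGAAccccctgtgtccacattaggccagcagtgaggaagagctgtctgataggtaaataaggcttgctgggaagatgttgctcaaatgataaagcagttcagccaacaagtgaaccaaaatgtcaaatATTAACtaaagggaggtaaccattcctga
Fgg, chr3:83007474-83007723, plus strand: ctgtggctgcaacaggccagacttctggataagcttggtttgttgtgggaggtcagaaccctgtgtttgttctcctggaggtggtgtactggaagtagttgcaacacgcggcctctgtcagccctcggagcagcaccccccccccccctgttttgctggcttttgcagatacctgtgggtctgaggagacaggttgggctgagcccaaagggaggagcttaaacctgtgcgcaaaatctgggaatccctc
C3, chr17:57228137-57228386, minus strand: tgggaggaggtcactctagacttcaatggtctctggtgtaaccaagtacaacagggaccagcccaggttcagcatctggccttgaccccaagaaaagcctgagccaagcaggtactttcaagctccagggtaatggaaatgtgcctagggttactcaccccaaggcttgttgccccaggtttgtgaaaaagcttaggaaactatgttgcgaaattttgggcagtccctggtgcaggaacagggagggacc

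Each promoter was searched on both strands for 3 motifs. The first was AGGTCA as an inverted repeat with 1 base between, with up to 2 mismatches, the element bound by FXR with the retinoid X receptor. None of the 6 promoters held it, and 0.959% of 32851 promoters of the same length in the table did. The second, TTCNNNGAA, is the core of STAT-type elements and reads the same on both strands. It matched as TTCCTGGAA at -234 to -226 of Fga and as TTCGAGGAA at -162 to -154 of Fgb, and 7.02% of all promoters held it. The third, GTTAAT, is part of the hepatocyte nuclear factor 1 element. It matched on the reverse strand, as ATTAAC, at -43 to -38 of Fga and at -29 to -24 of Fgb, and 6.43% of all promoters held it. No match to these 3 motifs overlapped another in Fga or Fgb. Fgg, C3 and Apoh had no match, and Pzp had 2 matches to GTTAAT. These matches describe letters in a short window, and factor binding was not measured.

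Fgb, the beta chain, showed the largest difference of the 8 genes after GW4064 in wild type. It measured 1.65, 2.11 and 1.97 TPM in wild type on vehicle and 13.7, 12.3 and 8.61 TPM in wild type under GW4064. Each GW4064 library was thus above each vehicle library. The means differed 6.04-fold, and the log2 difference was 2.30 ± 0.22 (SE) on the log2(TPM + 0.5) scale, which draws differences of low genes toward 0. In the knockout Fgb measured 0.753, 0.641 and 1.28 TPM on vehicle and 0.791, 1.27 and 1.14 TPM under GW4064. These 6 values overlapped between treatments and lay below all 6 wild-type values, and the log2 difference after GW4064 was 0.18 ± 0.22. The knockout mean was 2.14-fold below that of wild type on vehicle (log2 difference -0.81 ± 0.22) and 10.7-fold below it under GW4064 (-2.93 ± 0.22). The vehicle difference lost its call in 11 of 22 alternative fits, among them both other scalings and the fits without each wild-type vehicle library. Deposited coverage of Fgb ran from 0.97 to 16.9 reads per base, so its knockout values rest on few reads. The interaction of -2.12 ± 0.31 and the differences after GW4064 in wild type and between genotypes under GW4064 were called in every alternative fit. One of these fits kept genes with at least 5 TPM in 3 libraries, a level Fgb reached only in the wild-type GW4064 group.

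Fga, the alpha chain, was higher after GW4064 in wild type, less firmly than Fgb. It measured 20.4, 31.4 and 22.5 TPM on vehicle and 58.0, 65.8 and 44.8 TPM under GW4064. The groups did not overlap, and the log2 difference was 1.17 ± 0.29 (SE), a 2.27-fold ratio of means. The call was lost in 8 of 22 alternative fits, which include those without wild-type vehicle library 1 or 3, without wild-type GW4064 library 1 or 2 and without knockout vehicle library 3, with log2 differences of 1.05 to 1.35 over all 22. In the knockout Fga measured 31.0, 51.3 and 35.8 TPM on vehicle and 48.5, 39.4 and 89.6 TPM under GW4064. These groups overlapped, and library 3 of the knockout GW4064 group stood far above the other 2. The log2 difference of 0.52 ± 0.29 became 0.18 without that library. The interaction for Fga, -0.65 ± 0.40, was negative as for Fgb and C3, but was not called. These genes were chosen with this contrast known, so the calls only describe them. They do not decide whether the responses of the chains differed between genotypes. Fga levels in the knockout GW4064 group, 59.2 ± 26.8 TPM, overlapped those in wild type under GW4064, 56.2 ± 10.6 TPM (SD, n = 3).

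Fgg, the gamma chain, was not called in any of the 5 comparisons. It measured 11.2, 12.7 and 11.7 TPM in wild type on vehicle and 16.5, 16.6 and 15.3 TPM under GW4064. These groups did not overlap either, with a log2 difference of 0.43 ± 0.29 (SE), and a fit on these 2 groups alone called it. The knockout libraries measured 8.24, 13.2 and 17.5 TPM on vehicle and 12.7, 12.8 and 28.7 TPM under GW4064. The highest of these was again library 3 of the knockout GW4064 group, and without it the log2 difference in the knockout went from 0.41 ± 0.29 to 0.03. The SD of Fgg was 4.63 and 9.20 TPM in the knockout groups and 0.788 and 0.733 TPM in the wild-type groups, and the fit uses 1 spread for all 4.

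The proportions of the chains within a library differed by group. Fgb amounted to 6.70% to 8.79% of Fga in wild type on vehicle and to 18.6% to 23.6% under GW4064. In the knockout it was 1.25% to 3.58% on vehicle and 1.28% to 3.21% under GW4064. The 2 knockout ranges overlapped each other, and neither overlapped a wild-type range. Fgg amounted to 40.4% to 54.6% of Fga in wild type on vehicle and to 25.3% to 34.1% under GW4064, which did not overlap. In the knockout Fgg was 25.8% to 48.8% of Fga on vehicle and 26.1% to 32.5% under GW4064. The sum of the 3 chains was 33.2 to 46.3 TPM in wild type on vehicle, 68.8 to 94.7 TPM in wild type under GW4064, 40.0 to 65.1 TPM in the knockout on vehicle and 53.5 to 119.0 TPM in the knockout under GW4064. Fga transcripts were the most abundant of the 3 in all 12 libraries and Fgb transcripts the least abundant.

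**Figure D2:**
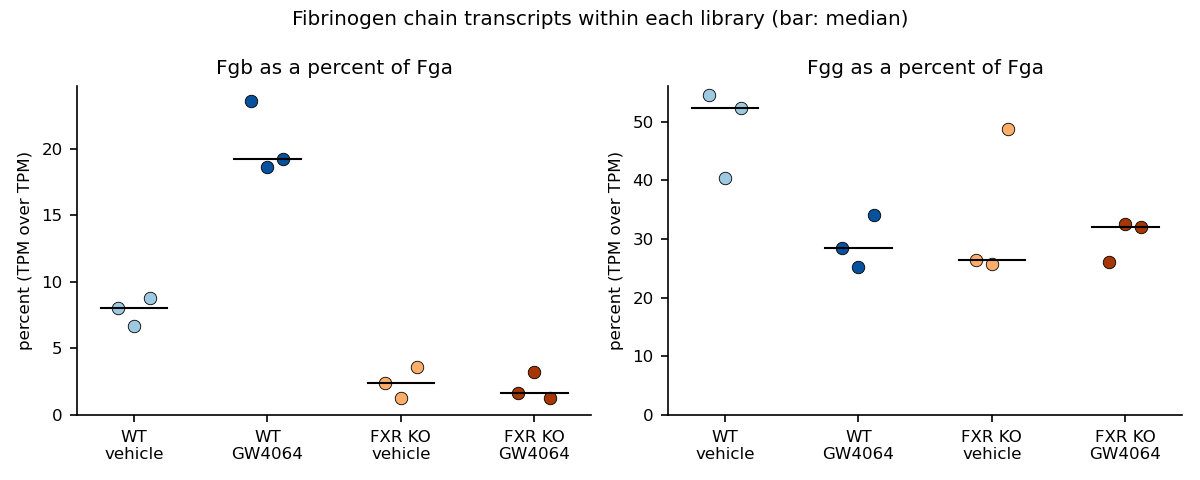
TPM of Fgb (left) and of Fgg (right) as a percent of the TPM of Fga in the same library, by group (points: 3 libraries a group, bar: median). The Fgb percent is highest in wild type under GW4064, at 18.6% to 23.6%, and lowest in the 2 knockout groups, at 1.25% to 3.58%.

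Genes beside the fibrinogen genes were examined within 250 kb on either side. These were Lrat, a retinol acyltransferase gene, Plrg1, a splicing factor gene, and Rbm46 and Rbm46os, which were too low to be tested. They were chosen by position after their values were seen. Lrat measured 3.45 ± 0.147 TPM on vehicle and 5.38 ± 0.849 TPM under GW4064 in wild type, with a log2 difference of 0.57 ± 0.20 (SE) that was not called (limma, adjusted p = 0.142). Plrg1, which starts 47.8 kb from the start of Fgg and is the nearest tested gene to Fgb outside the cluster, measured 38.4 ± 0.878 and 41.3 ± 0.465 TPM, a log2 difference of 0.10 ± 0.04 (limma, adjusted p = 0.235). Neither of the tested neighbours passed the threshold, although the wild-type groups did not overlap for either. Lrat reached at most 3.61 TPM on vehicle and at least 4.88 TPM under GW4064, and Plrg1 39.2 and 40.9 TPM. The log2 difference of Lrat was above the 0.43 ± 0.29 of Fgg, within its error. In the knockout GW4064 group Lrat was highest in library 3, at 6.04 TPM, as were Fga and Fgg.

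**Figure D3:**
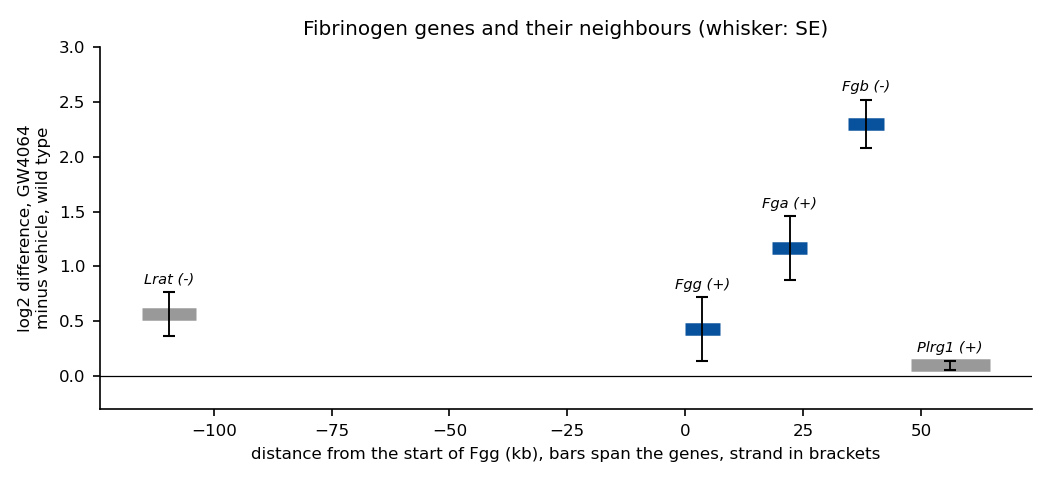
Log2 difference after GW4064 in wild type (vertical axis, whisker: SE) of the fibrinogen genes and their tested neighbours, against distance from the start of Fgg in kb; bars span the genes and the strand is in brackets. The values are 2.30 for Fgb, 1.17 for Fga, 0.43 for Fgg, 0.57 for Lrat and 0.10 for Plrg1.

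C3 was higher after GW4064 in wild type, and its levels in the 2 knockout groups overlapped those of wild type on vehicle. It measured 9.84, 10.4 and 11.4 TPM in wild type on vehicle and 39.3, 47.3 and 22.8 TPM under GW4064. The lowest GW4064 value was still above the highest vehicle value, and the means differed 3.45-fold, with a log2 difference of 1.68 ± 0.20 (SE). Library 3 was the lowest of the wild-type GW4064 group for C3, as for Fgb and Fga, and without it the C3 log2 difference was 1.98. In the knockout C3 measured 8.90, 8.95 and 10.5 TPM on vehicle and 10.3, 9.01 and 8.81 TPM under GW4064. All 6 values lay between 8.81 and 10.5 TPM, and the log2 difference was -0.01 ± 0.20. Under GW4064 the knockout mean was 3.88-fold below that of wild type (-1.84 ± 0.20), and the interaction was -1.69 ± 0.29. These 3 C3 calls (GW4064 in wild type, knockout under GW4064, interaction) held in every alternative fit. Macrophages and fat cells also make complement proteins. The 8 macrophage markers summed to 113.2 to 123.2 TPM in wild type on vehicle and to 124.2 to 128.9 TPM under GW4064. The 6 fat cell markers summed to 20.6 to 31.5 TPM and to 1.5, 37.6 and 5.71 TPM in wild-type GW4064 libraries 1 to 3. The C3 values of 39.3, 47.3 and 22.8 TPM stand beside these fat sums, and the part of such cells in the C3 difference was not tested.

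C4b (Entrez Gene 12268, chromosome 17, 34728381 to 34743897, minus strand), which encodes complement C4, was higher in the knockout. It measured 2.62, 2.21 and 2.44 TPM in wild type on vehicle and 5.17, 4.40 and 12 TPM in the knockout on vehicle. Under GW4064 it measured 2.61, 2.32 and 2.26 TPM in wild type and 4.91, 6.11 and 5.26 TPM in the knockout. All 6 knockout values exceeded all 6 wild-type values, and treatments overlapped within each genotype. The log2 difference between genotypes was 1.27 ± 0.27 (SE) on vehicle and 1.03 ± 0.27 under GW4064. Knockout vehicle library 3 was far above the others, and without it the vehicle difference was 0.86 and still called. The vehicle call was lost in the fit on the compared groups alone, and the call under GW4064 was lost in 5 fits that each left out 1 library of the compared groups. C4b has a close copy, C4a, which measured 0.166 to 0.758 TPM. Of the 75-base windows of the longest C4b transcript, 23.5% occur unchanged in C4a, so reads could be split between the copies and both values are uncertain.

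Cell type markers differed between genotypes as well. The macrophage sum was 139.6 to 148.1 TPM in the knockout on vehicle, against 113.2 to 123.2 TPM in wild type, and the 6 fibroblast markers summed to 160.8 to 189.2 TPM, against 252.3 to 339.6 TPM. Under GW4064 the macrophage sum was 125.9 to 152.5 TPM in the knockout and 124.2 to 128.9 TPM in wild type, and the fibroblast sum was 156.5 to 195.8 TPM and 213.7 to 289.7 TPM. On vehicle, the macrophage markers Lyz2, C1qb and C1qa were called higher in the knockout, of 7 tested, and none lower. Of 6 fibroblast markers, Col3a1, Col1a2, Col1a1 and Pdgfra were called lower and none higher. No proximal tubule marker was called on vehicle. Over all genes tested, 3.19% were called higher and 9.73% lower on vehicle. Under GW4064 the macrophage marker Lyz2 was called higher in the knockout and Csf1r lower (36.2 TPM against 47.0 TPM on average). Col3a1, Col1a1 and Col1a2 were called lower under GW4064. Of the 8 proximal tubule markers, Cubn, Aqp1, Lrp2 and Slc34a1 were called lower in the knockout under GW4064. Over all genes tested, 7.08% were called higher and 11.4% lower under GW4064. In wild type, Cubn and Csf1r were called higher after GW4064 and the fibroblast marker Pdgfra lower, beside 2.48% and 2.32% of all genes. The interaction was called negative for Cubn and Csf1r, as for Fgb and C3, and positive for Pdgfra, beside 1.72% and 1.47% of all genes. The part of these cells in the differences of Fgb, C3, C4b, Apoh and Pzp was not tested.

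Cfi (Entrez Gene 12630, chromosome 3, 129836739 to 129875332, plus strand), the gene of complement factor I, was not called in any of the 5 comparisons, in any alternative fit. It measured 10.2, 9.83 and 7.10 TPM in wild type on vehicle and 7.59, 6.76 and 6.77 TPM under GW4064, which overlapped. The knockout gave 10.3, 10.4 and 12.8 TPM on vehicle and 11.8, 7.12 and 8.48 TPM under GW4064, which overlapped too. The knockout vehicle values all lay just above the wild-type vehicle values, with a log2 difference of 0.29 ± 0.18 (SE). Its log2 difference after GW4064 was -0.33 ± 0.18 in wild type and -0.30 ± 0.18 in the knockout.

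Apoh (Entrez Gene 11818, chromosome 11, 108395297 to 108414396, plus strand) encodes beta-2-glycoprotein I, a plasma protein that binds anionic phospholipids. It showed the largest difference between genotypes on vehicle among the 8 genes. It measured 1.77, 2.59 and 2.38 TPM in wild type on vehicle and 15.7, 14.7 and 12.1 TPM in the knockout on vehicle. Under GW4064 it measured 1.52, 2.45 and 1.86 TPM in wild type and 5.54, 14.9 and 17.0 TPM in the knockout. All knockout values were above all wild-type values, and treatments overlapped within each genotype. The means differed 6.31-fold on vehicle and 6.42-fold under GW4064, with log2 differences of 2.42 ± 0.33 and 2.28 ± 0.33 (SE) that were called in every alternative fit. One of these fits kept genes with at least 5 TPM in 3 libraries, a level Apoh reached only in the knockout. Knockout GW4064 library 1 was the low one, and without it the difference under GW4064 was 2.76. GW4064 itself was followed by log2 differences of -0.17 ± 0.33 in wild type and -0.31 ± 0.33 in the knockout, and the second of these was 0.17 without that library.

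Pzp (Entrez Gene 11287, chromosome 6, 128483567 to 128526720, minus strand) encodes a protease inhibitor of the alpha-2-macroglobulin family. It measured 11.7, 14.1 and 15.8 TPM in wild type on vehicle and 28.4, 21.1 and 23.0 TPM in the knockout on vehicle, which did not overlap. Its log2 difference of 0.78 ± 0.22 (SE) lost its call in 11 of 22 alternative fits, among them those without any 1 of the 9 libraries outside the knockout GW4064 group. Under GW4064 it measured 19.5, 19.9 and 22.5 TPM in wild type and 13.3, 26.9 and 26.1 TPM in the knockout, which overlapped, with a log2 difference of 0.03 ± 0.22. In wild type the GW4064 values were all above the vehicle values, yet the log2 difference of 0.57 ± 0.22 was not called. It was called in the fit on these 2 groups alone and in that without knockout GW4064 library 1. That library was the low one for Pzp as for Apoh, and the Pzp log2 difference after GW4064 in the knockout went from -0.18 ± 0.22 to 0.14 without it. The gene model Gm10069 overlaps Pzp on the opposite strand. Counting by strand is not stated, so reads of the pair cannot be told apart.

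**Figure D4:**
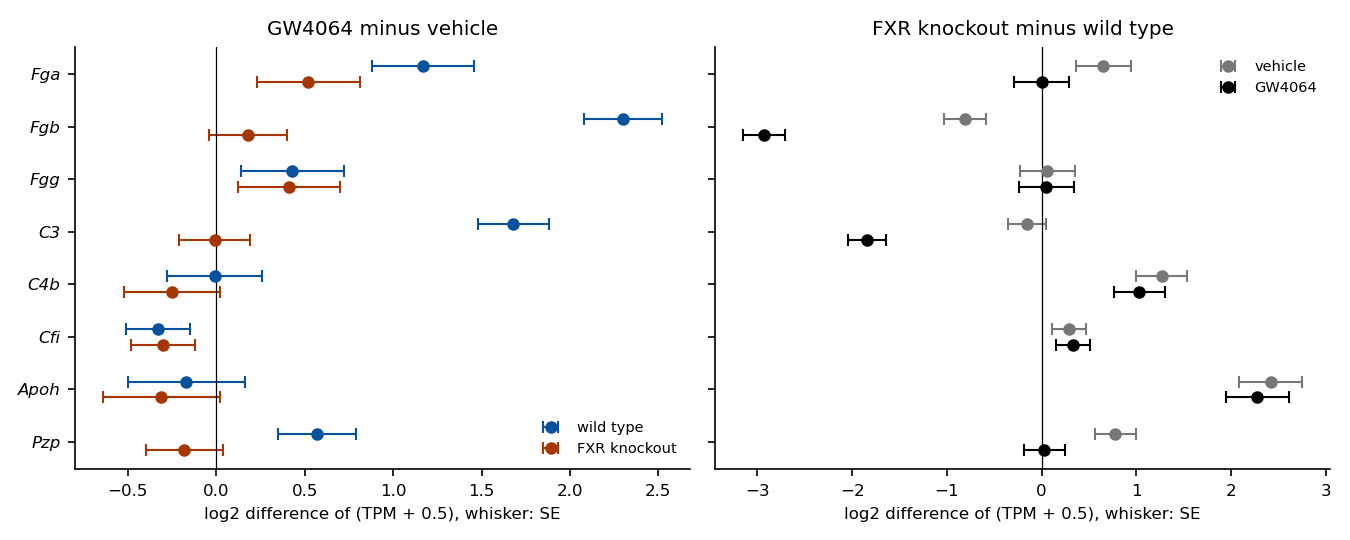
Log2 difference of (TPM + 0.5) of the 8 genes, with SE, after GW4064 in wild type and in the knockout (left) and for knockout minus wild type on vehicle and under GW4064 (right). Fgb and C3 stand apart at left, at 2.30 and 1.68 in wild type and 0.18 and -0.01 in the knockout, and Apoh stands apart at right, at 2.42 and 2.28.

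Other genes whose pattern lay closest to each of the 8 were found among 13766 tested genes, by the root mean square difference of log2(TPM + 0.5) values after subtracting each gene's mean over the 12 libraries. For Fgb they were Etnppl, a phosphoethanolamine lyase gene, at a difference of 0.440, Serpinc1, the antithrombin gene, at 0.449 and Slc51b, the partner subunit of Slc51a, at 0.469, while the values of Fgb itself had a root mean square of 1.26. For C3 they were Tstd2 at 0.257, Dgkd at 0.266 and Osgin1 at 0.301, and for Fga they were Stra6l at 0.230, Lrg1 at 0.305 and Snord49a at 0.348. For Fgg they were Dgkg at 0.251, Prox2 at 0.260 and Neil2 at 0.280, and for Cfi Sema7a at 0.168, Pde4d at 0.176 and Dclre1b at 0.188. The root mean square of the gene's own values was 0.81 for C3, 0.59 for Fga, 0.407 for Fgg and 0.295 for Cfi. It was 0.659 for C4b, 1.24 for Apoh and 0.394 for Pzp. A small difference beside a small own value is thus not by itself a close match. The closest to C4b were H2-Ab1 and Cd74, both of the MHC class II system, at 0.218 and 0.271, and F5, the gene of coagulation factor V, at 0.302. H2-Ab1 averaged 61.8 and 59.8 TPM in wild type on vehicle and under GW4064, and 121.5 and 103.7 TPM in the knockout. The closest to Apoh were Ctxn3 at 0.314, Cyp2a4, a cytochrome P450 gene, at 0.354 and Gas2l3 at 0.464. Cyp2a4 averaged 127.9 and 83.5 TPM in wild type and 511.3 and 470.3 TPM in the knockout. The closest to Pzp were Cyp2e1, another cytochrome P450 gene, at 0.128, Ugt2b37 at 0.237 and Esm1 at 0.244. Likeness here is over 12 libraries in 4 groups, which share the same treatments.

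Related genes were read from 8 lists of other plasma, pathway and transcription factor genes, holding 161 genes, of which 112 were tested. Kidney held high levels of some liver plasma protein transcripts and almost none of others. Kng2 ran from 508.7 to 607.7 TPM, Cfb, complement factor B, from 325.1 to 394.6 TPM, F13b from 163.1 to 200.6 TPM and Proc, protein C, from 116.5 to 138.9 TPM. Plg, the plasminogen gene, F9 and C9 reached at most 0.333, 0.0513 and 0.218 TPM. After GW4064 in wild type, 6 of the 112 genes rose and 7 fell (limma, adjusted p under 0.05). Over all genes tested, 2.48% were called higher and 2.32% lower, and the lists were chosen with earlier results of these data known. Of the 16 other complement components tested, C8a (0.42 ± 0.09, adjusted p = 0.0291) and Mbl1 (0.60 ± 0.14, adjusted p = 0.0302) rose in the limma fit and none fell, and each call was lost in 6 of 22 alternatives. The list's median log2 difference was 0.04, beside -0.03 over all genes tested.

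Among 17 coagulation factors and inhibitors, 2 rose after GW4064 in wild type and 1 fell (limma, adjusted p under 0.05), with a median log2 difference of 0.06. Serpinc1 encodes antithrombin, the inhibitor of thrombin. It measured 1.66, 1.64 and 1.69 TPM on vehicle and 7.80, 5.72 and 5.13 TPM under GW4064 in wild type. In the knockout it measured 0.846, 0.967 and 0.483 TPM on vehicle and 1.17, 0.782 and 0.767 TPM under GW4064. As for Fgb, the wild-type GW4064 libraries were the highest and the 6 knockout libraries the lowest. Coverage of Serpinc1 ran from 0.833 to 9.59 reads per base, so its knockout values rest on few reads. The difference between genotypes on vehicle, -0.79 ± 0.21 (limma, adjusted p = 0.0291), lost its call in 9 of 22 alternatives. The log2 difference in wild type was 1.61 ± 0.21 (limma, adjusted p = 9.1e-04) and held in all 22 alternatives, with adjusted p from 5.2e-04 to 0.0068. One of these kept genes with at least 5 TPM in 3 libraries, a level Serpinc1 reached only in the wild-type GW4064 group. The interaction of -1.45 ± 0.29 (limma, adjusted p = 0.0223) was lost in 7 of 21 alternatives, 5 of which left out 1 library. Kng1, a kininogen gene, fell by 1.43 on the log2 scale (limma, adjusted p = 0.0473), a call lost in 15 of 22 alternatives, and reads may be split with its close copy Kng2. Proc rose by 0.17 ± 0.04 (limma, adjusted p = 0.0468), a call lost in 14 of 22. Of 10 fibrinolysis genes, Plau, the urokinase gene, rose by 0.28 ± 0.06 and Plat, the tissue plasminogen activator gene, fell by 0.41 on the log2 scale (limma, adjusted p = 0.0212 and 0.0147), calls lost in 4 and 1 of 22 alternatives. The median of these 10 was -0.03.

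Of 30 other liver plasma protein genes tested, such as Alb, Ttr and the apolipoproteins, 0 were called after GW4064 in wild type in the limma fit, and 2 were higher and 6 lower at an unadjusted p under 0.05. Their median log2 difference was -0.18. Of 18 acute phase and STAT3 response genes, 0 rose and 2 fell, Junb (-0.70 ± 0.14) and Socs3 (-0.59 ± 0.14), with limma adjusted p of 0.0124 and 0.0378, and the Socs3 call was lost in 13 of 21 alternatives. At an unadjusted p under 0.05 none of the 18 was higher and 7 were lower, and their median was -0.20. After GW4064 in the knockout 0 of the 112 list genes were called by limma, and 13 were higher and 6 lower at an unadjusted p under 0.05. Shares over all genes at an unadjusted p under 0.05 were not computed, so nothing is read from the counts at that threshold.

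Between genotypes on vehicle, 10 of the 112 list genes were higher in the knockout and 13 lower by limma, Nr1h4 itself among the lower ones. Over all genes tested, 3.19% were called higher and 9.73% lower in this comparison. F5 measured 5.82, 6.20 and 5.40 TPM in wild type and 13.8, 13.2 and 14.0 TPM in the knockout, with a log2 difference of 1.17 ± 0.10 (limma, adjusted p = 4.8e-05). Under GW4064 it was 0.95 ± 0.10 (limma, adjusted p = 5.4e-05), and both F5 calls held in every alternative. Azgp1, a plasma glycoprotein gene, was higher by 1.24 ± 0.32 on vehicle and 1.51 ± 0.32 under GW4064 (limma, adjusted p = 0.0283 and 0.0073), and the vehicle call was lost in 5 of 22 alternatives. Its 15.3 TPM in knockout GW4064 library 1, beside 37.1 and 44.4 TPM in libraries 2 and 3, made that library low here as for Apoh and Pzp. Apoa4, an apolipoprotein gene, went the other way, from 30.1 ± 1.81 to 13.6 ± 1.58 TPM on vehicle (limma, adjusted p = 4.7e-04). Under GW4064, 24 list genes were higher in the knockout and 14 lower. Acute phase and STAT3 response genes gave 10 of these higher calls and 1 of the lower ones among 18 tested, with a median log2 difference of 0.52 beside -0.03 over all genes, where 7.08% of all genes were called higher and 11.4% lower. In the same comparison 4 of 8 proximal tubule markers were called lower (median -0.21), as were 3 of 6 fibroblast markers, while Lyz2 was called higher and Csf1r lower among macrophage markers. The part of these cells in the list's difference was not tested.

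**Figure D5:**
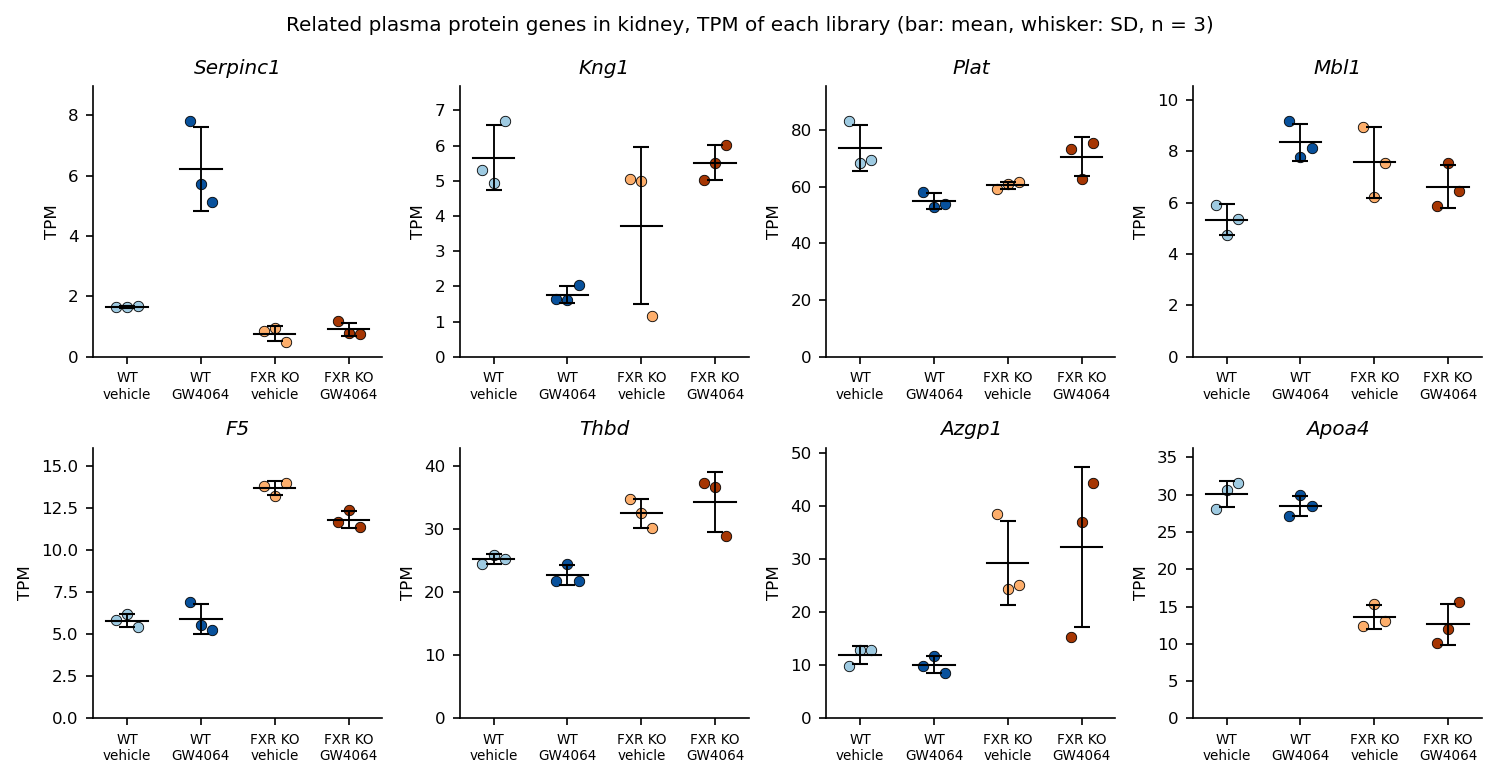
TPM of 8 related genes in each library, by group (points: libraries, bar: mean, whisker: SD, n = 3; each panel has its own vertical axis from 0). Serpinc1 is highest in the wild-type GW4064 libraries, at 5.13 to 7.80 TPM, F5 and Azgp1 are higher and Apoa4 lower in the knockout groups, and Kng1 is low in the wild-type GW4064 group and in knockout vehicle library 3.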

How the data were processed

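Kidney total RNA of 12 libraries was prepared with a stranded total RNA kit, per the labels' protocols. The submitters' processing notes name HISAT2, StringTie, Cufflinks and the build mm10. Tool versions and roles, the annotation and any use of strand in counting are not stated in these notes or labels. The authors deposited 1 gene table per library with TPM, FPKM and coverage. Per the file headers these are columns of 1 gene abundance table, and the deposited TPM sum to 1000000 per library. The deposited FPKM served as an alternative unit and, with the deposited coverage signal, gave the mapped gigabases. Read counts were not used here. Symbols were taken from the RefSeq table of GRCm38.p6, which matched 24462 of 24532 identifiers. Several entries of 1 identifier (113 to 142 per library) were summed.

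Groups came from the labels and no library was left out. Values were transformed as log2(TPM + 0.5), and a gene was kept if 3 or more libraries reached 1 TPM. A limma 3.58.1 fit in R 4.3.3 gave each of 4 groups a mean and let the variance follow the level. Benjamini-Hochberg adjustment was made separately in each of 5 comparisons, and adjusted p-values under 0.05 were called. Errors are SD beside TPM and SE beside log2 differences. The fit was checked on simulated data, drawn as independent normal values with the same spread in every group. Genes such as Fgg, whose spread differed between genotypes, lie outside that setting, so the check does not cover their calls. Tables and figures used Python 3.11.15, pandas 2.3.3, numpy 2.4.6 and matplotlib 3.10.9. The 8 genes, the 8 pathway lists and the marker lists were chosen with earlier results of these data known. All 8 genes are named. From every list, in each comparison and direction, the 3 called genes of smallest p (or all of 5 or fewer) could be named, and for each of the 8 genes the 3 most alike, leaving out gene models. Not all genes given by this rule are printed. Levels of list genes that were not called were singled out after their values were seen. Alternative fits changed the pseudocount, filter, scaling, unit, variance model or fitted groups, added a replicate block, or omitted 1 library at a time. The planned protein comparison was not made here.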

Additional observations from a re-analysis of the deposited data

Results flagged for a closer look

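The GW4064 effect differed between genotypes, by the interaction term of the limma fit, for 2 of the 8 genes and for 8 related list genes, with values given as knockout effect minus wild-type effect on the log2 scale. Over all genes tested, 1.47% were called positive and 1.72% negative for this term. For Fgb it was -2.12 and for C3 -1.69. These 2 genes were chosen with this contrast known, so the values are a description. Among list genes it was -1.45 for Serpinc1, the antithrombin gene. It was positive for Kng1 (2.14), Lbp, the lipopolysaccharide-binding protein gene (1.08), Serping1, the C1 inhibitor gene (0.88), Cp, the ceruloplasmin gene (0.79), Plat (0.63), Lrp1, a receptor that takes up alpha-2-macroglobulin complexes (0.56), and S100a10 (0.55). Of these 8 list genes, Plat was called in all 21 alternatives and Serpinc1 in 14 of 21. The other 6 each lost the call in 12 to 15 of 21. Groups of 3 libraries were not tested for outlying samples.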

How the results depend on the processing

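Of 872 recomputed log2 differences of the 8 genes, 853 moved by less than 1 SD, 19 moved by more and no called one changed sign. Calls among the 8 genes numbered 3 after GW4064 in wild type (5 when only the groups compared were fitted) and 4 between genotypes on vehicle (2 when only the groups compared were fitted, 2 to 4 leaving out 1 library). After GW4064 in wild type the Fga call was lost in 8 of 22 alternatives, while Pzp was called in 2 of 22 and Fgg in 1. Calls among list genes numbered 13 after GW4064 in wild type (7 with no filter, 8 with no variance trend, 4 to 14 leaving out 1 library), 0 after GW4064 in the knockout (0 to 1 leaving out 1 library), 23 between genotypes on vehicle (12 to 24 leaving out 1 library) and 8 for the interaction (2 with no filter, 5 with no variance trend, 1 to 8 leaving out 1 library). The libraries whose removal moved a list count by over 1.5 times include libraries of each group, and the cause was not tested.

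Over all genes, leaving out 1 library gave 334 to 768 calls after GW4064 in wild type (696 with all), 926 to 1903 between genotypes on vehicle (1872), 1726 to 2760 under GW4064 (2677) and 216 to 535 for the interaction (462). After GW4064 in the knockout there were 2 calls, 0 to 51 leaving out 1 library (31 without knockout vehicle library 2, 51 without knockout GW4064 library 2), 1 with log2(TPM + 0.1) or either other scaling, and 0 with no variance trend, the block or only the groups compared. Scaling moved the balance of higher and lower calls. It was 360 and 336 after GW4064 in wild type, 458 and 226 with median-of-ratios scaling and 410 and 269 with quantile scaling. Between genotypes on vehicle it was 462 and 1410, then 846 and 533, then 674 and 590 in the same order. Under GW4064 it was 1026 and 1651, then 1243 and 1317, then 1310 and 1323, and for the interaction 213 and 249, then 138 and 362, then 162 and 276.

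No pairing of libraries by replicate number was seen in the deviations of 18 same-numbered pairs, which correlated at -0.0748 to 0.0829. Identifiers with several entries numbered 113 to 120 in library 2 of each group and 126 to 142 in the other libraries. The correlations cannot exclude a batch shared by libraries of the same replicate number. With the number as a block, calls among the 8 genes were 2 after GW4064 in wild type (Fga was lost), 0 after GW4064 in the knockout, 3 between genotypes on vehicle (Fgb was lost), 4 under GW4064 and 2 for the interaction, and calls among list genes were 10, 0, 22, 39 and 6. Among the 8 genes, depth limits mainly Fgb, whose coverage fell as low as 0.97 reads per base.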
